A study of Mus musculus with 24 samples.

Results

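The comparison described here adds the bacterium LGG to an antibody against PD-1 in mice that lack Myd88. It sets 3 libraries of the combination (labelled anti-PD-1&LGG) against 3 libraries of anti-PD-1 alone, which are 6 of the 24 libraries in the series, and the members were taken by their labels. Each library is RNA sequenced in bulk from CD11c+ dendritic cells, purified with CD11c MicroBeads from the mesenteric lymph nodes of C57BL/6 mice with MC38 tumours, a mouse colon carcinoma line. The mice were labelled female, 6 to 8 weeks old, and were injected under the skin of the flank with 1000000 tumour cells. After 7 to 10 days, at an average tumour size of 100 mm3, they were pooled and divided at random into treatment groups. Both groups compared received 200 μg of the antibody per mouse, 2 doses a week for 2 to 3 weeks, and both carry the Myd88 knockout. The combination group also received live LGG by mouth, 2 times a week. Further groups used below are wild-type mice with the same 2 treatments and Myd88 knockout mice with IgG control antibody or LGG, 3 libraries each. The labels do not say that replicates come from separate animals, so p-values measure only the spread between these libraries, which may be technical.

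Myd88 is the adaptor that most Toll-like receptors and the interleukin-1 receptor family use to activate NF-kappaB and inflammatory cytokine genes. Toll-like receptors 3 and 4 can also signal through the adaptor TRIF, encoded by Ticam1, which leads to type I interferon, and C-type lectin receptors such as Mincle, encoded by Clec4e, signal through the kinase Syk without Myd88. LGG, Lactobacillus rhamnosus GG, is a probiotic bacterium of the gut. Dendritic cells of the mesenteric lymph node carry antigen from the intestine to T cells, and PD-1 is an inhibitory receptor on T cells whose ligand is encoded by Cd274.

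The targeted gene, Myd88, had normalised read counts of 1459, 884 and 1837 in the 3 anti-PD-1 libraries and 748, 758 and 742 in the 3 combination libraries, against 1723 to 2232 in the 12 wild-type libraries. The table gives 1 value per gene, so reads on a deleted part of Myd88 cannot be told apart from the rest. All 12 libraries labelled knockout carried the Y-linked transcript Ddx3y at 1241 to 2136, and the wild-type libraries at 0 to 4.50, although the labels give female mice for both. In the 6 libraries compared here Ddx3y lay at 1473 to 2051. Itgax, which encodes CD11c, lay at 33061 to 53698 in all knockout libraries and the dendritic cell transcription factor gene Zbtb46 at 192 to 458. Flt3, the cytokine receptor of conventional dendritic cells, was low, at 16.0, 15.2 and 33.3 with anti-PD-1 alone and 43.0, 48.5 and 41.0 with the combination, while the macrophage genes Lyz2 (198940 to 365597 over all knockout libraries) and Csf1r (15625 to 20883) had many reads. They are called CD11c+ cells below.

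The 3 anti-PD-1 libraries stood far apart from each other and the 3 combination libraries did not. Their biological coefficients of variation were 0.375 and 0.0331. Over the 12363 genes tested, 4123 differed by more than 2-fold among the anti-PD-1 libraries and 286 among the combination libraries. In 3558 of the 4123, replicate 1 lay between the other 2, and in 3144 the mean of the combination fell inside the anti-PD-1 range. Within the group, the deviation of anti-PD-1 replicate 2 rose with transcript length across genes (r = 0.54) and those of replicates 1 and 3 fell with it (r = -0.39 and -0.37), while the combination libraries gave -0.11 to 0.06. Reads on listed genes were 28179103 to 36421522 in the 6 libraries. Because of the spread, each result below is also read against every single anti-PD-1 library: a gene is said to hold when the 3 combination libraries do not overlap the 3 anti-PD-1 libraries and their mean lies at least 2-fold from each of them in the same direction.

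With the combination, 737 genes (5.96%) were higher and 521 (4.21%) lower than with anti-PD-1 alone (limma on log2(value + 1), Benjamini-Hochberg adjusted p below 0.05), 1258 in all or 10.2% of the genes tested. All 1258 had libraries that did not overlap between the groups, as had 36.3% of all genes tested (19.6% higher and 16.7% lower). Genes that held numbered 504 (4.08%), of which 361 were higher (2.92%) and 143 lower (1.16%). Of these, 462 were also called by limma (3.74%), 330 higher (2.67%) and 132 lower (1.07%), and 796 called genes did not hold. Against single libraries, the mean of the combination was 2-fold or more above anti-PD-1 replicate 1 for 1185 genes (9.59%), above replicate 2 for 909 (7.35%) and above replicate 3 for 1753 (14.2%). It was 2-fold or more below them for 571 (4.62%), 504 (4.08%) and 1615 (13.1%). A further measure of the disagreement is that 120 genes were 2-fold above 1 of these libraries and 2-fold below another. The number of calls was 309, 5855 and 1746 without anti-PD-1 replicate 1, 2 or 3, and 146 to 154 without any 1 combination library. Each fit uses 1 variance per gene for both groups, although the spreads given above differ. Its p-values therefore assume an equal spread, and fewer calls without a combination library do not show that library to be influential. In each of the 6 fits that left out 1 library, 139 genes were called, 107 higher and 32 lower, and all 139 held. With each library's trend on transcript length and GC content removed, an alternative chosen after seeing the data, limma called 2295 genes and 440 of the 504 still held. In bulk RNA, fewer cells of a type and less RNA per cell cannot be told apart for any gene or list here.

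**Figure D1:**
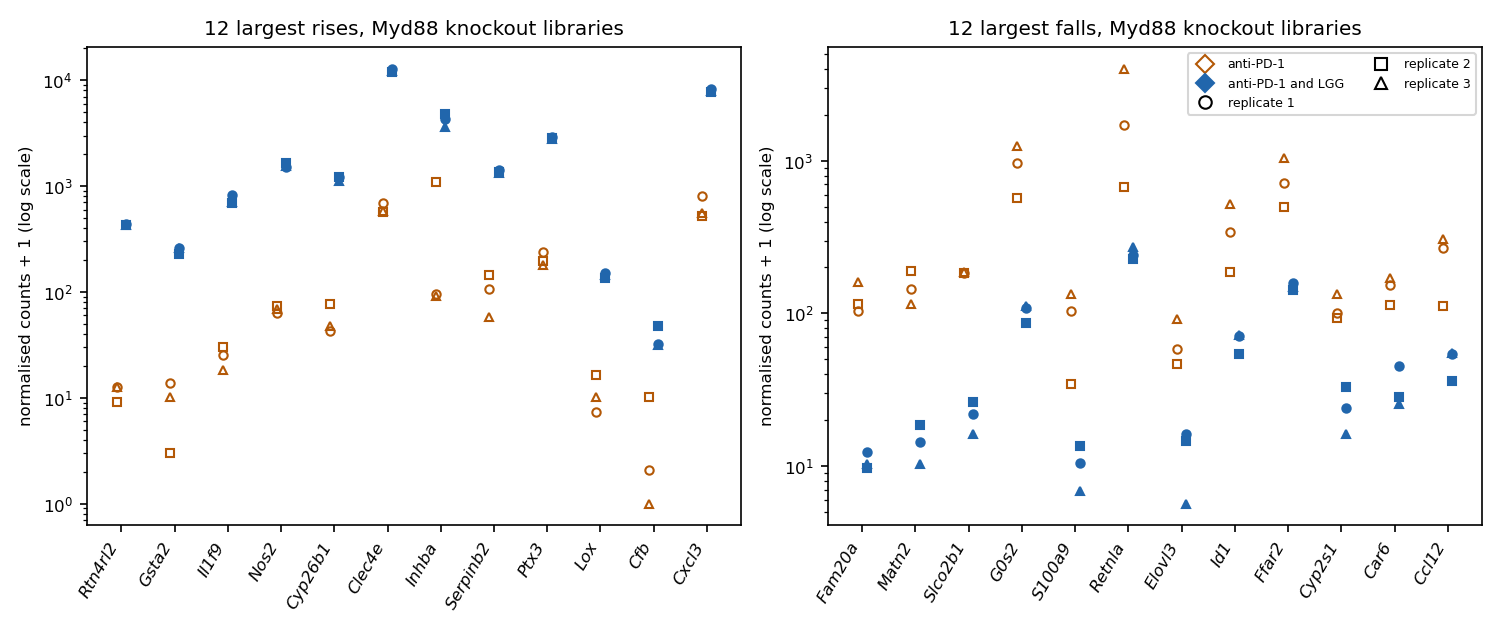
Normalised counts plus 1 on a log axis in the 6 knockout libraries for the 12 largest rises (left) and the 12 largest falls (right) that were called and held; open symbols are anti-PD-1 alone, filled symbols the combination, and the shape gives the replicate. The combination libraries of Nos2 and Clec4e sit close together, while those of S100a9 and Matn2 spread more, at low counts. The anti-PD-1 libraries of Inhba range from 90.8 to 1083 and those of Retnla from 669 to 4006.

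The rises that held were led by Rtn4rl2, a Nogo receptor family gene (chr2:84871924-84886710 in mm10). It had 11.7, 8.12 and 11.5 with anti-PD-1 alone and 433, 426 and 429 with the combination, a log2 difference of 5.25 ± 0.20 (SE), limma adjusted p = 0.00024. Nos2 (chr11:78920787-78960254), the inducible nitric oxide synthase, had 61.7, 72.1 and 67.8 with anti-PD-1 alone and 1522, 1639 and 1548 with the combination, a difference of 4.53 ± 0.13 (SE), limma adjusted p = 0.000111. Clec4e (chr6:123281789-123289870), the Mincle receptor gene, had 685, 570.4 and 578 with anti-PD-1 alone and 12839, 11964 and 12195 with the combination (4.34 ± 0.13 (SE), limma adjusted p = 0.000111). In these 3 genes the groups were far apart and neither group had a stray library. Il1f9, which encodes the interleukin-1 family cytokine IL-36 gamma, had 24.5, 29.4 and 17.2 with anti-PD-1 alone and 817, 686 and 702 with the combination (4.92 ± 0.23 (SE), limma adjusted p = 0.000485). Cyp26b1, a retinoic acid degrading enzyme, had 41.5, 75.1 and 47.1 with anti-PD-1 alone and 1218, 1204 and 1121 with the combination (4.46 ± 0.24 (SE), limma adjusted p = 0.000845). Cxcl3, a neutrophil-attracting chemokine gene, had 805, 526 and 554 with anti-PD-1 alone and 8239.9, 7799 and 7867 with the combination (3.69 ± 0.19 (SE), limma adjusted p = 0.000668). Ptx3, a soluble pattern recognition protein of the pentraxin family, had 239, 196 and 180.4 with anti-PD-1 alone and 2931, 2853 and 2799 with the combination (3.80 ± 0.15 (SE), limma adjusted p = 0.00024).

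Gsta2, a glutathione transferase with close paralogs among which counting may split reads, had 12.8, 2.03 and 9.19 with anti-PD-1 alone and 261, 225 and 260.0 with the combination, and Serpinb2, a plasminogen activator inhibitor, had 105, 143 and 56.3 with anti-PD-1 alone and 1414, 1362 and 1332 with the combination. Their log2 differences were 5.05 and 3.84. Lox, the collagen cross-linking lysyl oxidase, had 6.38, 15.2 and 9.19 with anti-PD-1 alone and 151, 134 and 143 with the combination. Inhba, which encodes the activin A subunit, had 93.6, 1083 and 90.8 with anti-PD-1 alone and 4320.4, 4781 and 3623 with the combination, and anti-PD-1 replicate 2 was the outlying library: the distance from the mean of the combination was 5.48, 1.96 and 5.52 for the 3 anti-PD-1 libraries in order. Cfb, complement factor B, had 1.06, 9.13 and 0 with anti-PD-1 alone and 31.5, 46.6 and 30.4 with the combination, again highest in replicate 2. Of the 12 leading rises, 10 were called in each of the 6 fits without 1 library. The other 2 were Inhba and Cfb, whose limma adjusted p rose from 0.0402 and 0.0444 to as high as 0.162 and 0.186.

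Among the falls, Fam20a (chr11:109669749-109722279), a pseudokinase gene, had 103, 115 and 159.7 with anti-PD-1 alone and 11.5, 8.74 and 9.37 with the combination (-3.53 ± 0.26 (SE), limma adjusted p = 0.00163). Slco2b1 (chr7:99657804-99711340), an organic anion transporter, had 183, 183 and 186 with anti-PD-1 alone and 21, 25.2 and 15.2 with the combination (-3.13 ± 0.23 (SE), limma adjusted p = 0.00163), and the 3 anti-PD-1 libraries were almost level for it. Matn2, the matrix protein matrilin-2, had 144, 189 and 115 with anti-PD-1 alone and 13.4, 17.5 and 9.37 with the combination, and G0s2, an inhibitor of triglyceride lipase, had 969, 572 and 1249 with anti-PD-1 alone and 108, 85.4 and 110.1 with the combination. Their differences were -3.39 and -3.13, and these 4 falls were called in all 6 fits without 1 library. Ffar2, a receptor for the short-chain fatty acids that gut bacteria make, had 715, 496 and 1042 with anti-PD-1 alone and 157, 141 and 149 with the combination (-2.26 ± 0.28 (SE), limma adjusted p = 0.00765). Id1, an inhibitor of DNA binding and a target of BMP signals, had 340.3, 185 and 518 with anti-PD-1 alone and 69.7, 53.4 and 71.4 with the combination. Retnla, a gene of alternatively activated macrophages, had 1705, 669 and 4006 with anti-PD-1 alone and 241, 227 and 273 with the combination, and S100a9, a calcium-binding protein of neutrophils and monocytes, had 103, 33.5 and 133 with anti-PD-1 alone and 9.55, 12.6 and 5.86 with the combination. In Ffar2, Id1, Retnla and S100a9 alike anti-PD-1 replicate 2 was the lowest of its group and replicate 3 the highest, and every anti-PD-1 library stayed above the combination. Ccl12, a monocyte-attracting chemokine, fell by 2.14, Car6, a secreted carbonic anhydrase, by 2.18, Cyp2s1, a cytochrome P450, by 2.20 and Elovl3, a fatty acid elongase, by 2.51 on the log2 scale. These last 8 falls lost their call in at least 1 fit without 1 library, where the limma adjusted p reached 0.0587 for Ffar2 and 0.164 for Retnla.

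The counts of each gene list, here and below, are to be read beside all genes tested, of which 5.96% were called higher and 4.21% lower. Of 29 inflammatory cytokine and NF-kappaB target genes tested, 17 were called higher, 1 lower and 11 not, with a median log2 difference of 1.22 beside 0.013 over all genes, and 14 held. The 17 became 9, 20 and 17 without anti-PD-1 replicate 1, 2 or 3 in turn, and 5 without any 1 combination library. Tnf had 574, 459.7 and 792 with anti-PD-1 alone and 3248, 3331 and 3485 with the combination (2.50 ± 0.21 (SE), limma adjusted p = 0.0027). Il1b, the interleukin-1 beta gene, had 640.2, 465 and 611 with anti-PD-1 alone and 1446, 1327 and 1253 with the combination (1.24 ± 0.17 (SE), limma adjusted p = 0.00904). The subunit genes of interleukin-12 were near the floor with anti-PD-1 alone: Il12b had 8.51, 7.10 and 2.30 with anti-PD-1 alone and 29.6, 20.4 and 46.8 with the combination (2.31 ± 0.53 (SE), limma adjusted p = 0.0444), and Il12a had 1.06, 7.10 and 1.15 with anti-PD-1 alone and 20.1, 23.3 and 25.8 with the combination (2.86 ± 0.60 (SE), limma adjusted p = 0.0347). Both held, yet at such low counts a difference on the log2(value + 1) scale understates the change and is imprecise. Of the 6 fits without 1 library, Il12b was called in 2 and Il12a in 1. The limma adjusted p in these fits reached 0.189 for Il12b and 0.157 for Il12a. Il23a, a partner of Il12b in interleukin-23, had 11.7, 7.10 and 14.9 with anti-PD-1 alone and 16.2, 15.5 and 15.2 with the combination and was not called (0.50 ± 0.34 (SE), limma adjusted p = 0.391).

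Il6 (chr5:30013114-30019981) was the 1 gene of that list called lower. It had 1831, 1627 and 1447 with anti-PD-1 alone and 547, 499 and 559.8 with the combination, so that every combination library was below every anti-PD-1 library (-1.60 ± 0.14 (SE), limma adjusted p = 0.0027). The distances from the single anti-PD-1 libraries were -1.77, -1.60 and -1.43, and Il6 was called in all 6 fits without 1 library. Il10, an anti-inflammatory cytokine gene, was at 2.13, 5.07 and 6.89 and 1.91, 8.74 and 4.68, below the mean of 10 needed for the test.

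Of 37 interferon-stimulated genes tested, 25 were called higher, none lower and 12 not, 20 held, and the median was 1.25. Against anti-PD-1 replicate 1, 2 and 3 taken singly the median was 1.29, 1.25 and 1.24. The 25 became 16, 30 and 28 without anti-PD-1 replicate 1, 2 or 3 in turn, and 6 or 7 without any 1 combination library. Rsad2, the antiviral protein viperin, had 302, 335 and 254 with anti-PD-1 alone and 3350.4, 3320.3 and 3047 with the combination (3.45 ± 0.15 (SE), limma adjusted p = 0.000291). Oasl2, of the oligoadenylate synthetase family, had 1193, 1232 and 1099 with anti-PD-1 alone and 3897, 4061 and 4005 with the combination (1.76 ± 0.11 (SE), limma adjusted p = 0.00109), and Oas2 had 209.5, 214 and 206 with anti-PD-1 alone and 552, 605 and 563 with the combination (1.45 ± 0.13 (SE), limma adjusted p = 0.0027). Rtp4 had 601, 484 and 524 with anti-PD-1 alone and 1686, 1707 and 1676 with the combination (1.66 ± 0.13 (SE), limma adjusted p = 0.00217). In these 4 genes the 3 anti-PD-1 libraries lay close together. Isg15, a ubiquitin-like modifier, had 478, 287 and 532 with anti-PD-1 alone and 1702, 1587 and 1722 with the combination (2.00 ± 0.25 (SE), limma adjusted p = 0.00786). Irf7, the transcription factor that amplifies interferon production, had 332, 237 and 458 with anti-PD-1 alone and 1196, 1141 and 1260.1 with the combination (1.85 ± 0.25 (SE), limma adjusted p = 0.00926). Ifnb1, the interferon beta gene itself, was below the filter, with 1.06, 0 and 2.30 against 15.3, 13.6 and 16.4, and its libraries did not overlap.

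The RefSeq sequence upstream of 5 of these genes (build GRCm38.p6, 250 bases ending at the base before the transcript start, 5′ to 3′ on the gene's strand) is shown to place these motifs in rising genes. Rsad2, Isg15, Cxcl10, Cxcl3 and Tlr2 were picked because they hold one, whereas the same window of Clec4e, Tnf, Il1b, Il12b, Irf7, Oasl2, Rtn4rl2, Gsta2, Inhba and Cyp26b1, which also rose, holds neither. Capitals mark matches, on either strand, to the core of the interferon-stimulated response element (GAAA, 2 bases of any kind, GAAA) or to a kappaB site (GGGA, any base, TT, any base, CC). The windows are, in order, chr12:26456453-26456702, minus strand; chr4:156200819-156201068, minus strand; chr5:92348890-92349139, minus strand; chr5:90785851-90786100, plus strand; and chr3:83841609-83841858, minus strand.
Rsad2: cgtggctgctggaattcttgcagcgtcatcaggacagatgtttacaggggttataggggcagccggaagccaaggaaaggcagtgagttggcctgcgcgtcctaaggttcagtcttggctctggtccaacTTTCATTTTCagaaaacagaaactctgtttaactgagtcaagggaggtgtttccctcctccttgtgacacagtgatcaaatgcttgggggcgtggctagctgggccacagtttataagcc
Isg15: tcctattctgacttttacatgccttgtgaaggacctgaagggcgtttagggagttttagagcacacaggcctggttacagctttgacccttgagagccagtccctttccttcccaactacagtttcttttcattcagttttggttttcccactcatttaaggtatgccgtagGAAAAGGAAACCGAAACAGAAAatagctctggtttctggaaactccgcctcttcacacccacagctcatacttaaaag
Cxcl10: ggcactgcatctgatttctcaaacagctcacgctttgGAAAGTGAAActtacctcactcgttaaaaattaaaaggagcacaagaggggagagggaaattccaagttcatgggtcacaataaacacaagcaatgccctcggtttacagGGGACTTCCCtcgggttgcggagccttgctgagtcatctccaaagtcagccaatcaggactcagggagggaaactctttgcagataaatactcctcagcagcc
Cxcl3: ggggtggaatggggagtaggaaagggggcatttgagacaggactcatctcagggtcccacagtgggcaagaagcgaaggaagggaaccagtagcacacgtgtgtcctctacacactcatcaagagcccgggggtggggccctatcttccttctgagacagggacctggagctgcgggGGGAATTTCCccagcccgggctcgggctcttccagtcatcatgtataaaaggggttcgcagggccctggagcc
Tlr2: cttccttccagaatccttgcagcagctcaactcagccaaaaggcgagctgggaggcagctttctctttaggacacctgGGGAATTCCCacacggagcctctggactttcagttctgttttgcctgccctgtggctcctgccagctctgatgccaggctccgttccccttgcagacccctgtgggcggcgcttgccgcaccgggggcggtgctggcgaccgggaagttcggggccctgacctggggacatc
Rsad2 has 1 response element, at position -120 from the start, and Isg15 has 3 that overlap each other, at -78, -72 and -66. Cxcl10 has 1 response element at -213 and 1 kappaB site at -103, which do not overlap. Cxcl3 and Tlr2 each have 1 kappaB site, at -73 and -172.

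Searched over the full 300 bases that also include the 50 after the start, the response element was present in 3.44% of 32851 RefSeq promoters and in 4.01% of the 9782 tested genes with a promoter in the table. It was present in 14 of the 26 interferon list genes with a promoter (53.8%), and in 6 of the 13 of them that were called and held (46.2%). Over all called genes that held, it was present in 20 of 255 higher genes (7.84%) and 6 of 105 lower genes (5.71%). The kappaB site was present in 1.20% of all promoters, in 1.63% of tested genes in 10 of those 255 (3.92%) and in 4 of those 105 (3.81%), so its share was near the same for rises and falls. A gamma-activated site, TTCNNNGAA, which can overlap either motif, was present in 8.30% of promoters, 28 of the 255 (11.0%) and 8 of the 105 (7.62%). A match is a description of the letters, not a site shown to be used.

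The interferon gamma response, whose genes encode GTPases against intracellular microbes and chemokines for T cells, had 7 of 18 genes called higher and none lower, with a median of 0.67, and 2 held. The 7 became 2, 10 and 7 without anti-PD-1 replicate 1, 2 or 3 in turn, and 1 without any 1 combination library. Cxcl10 had 29.8, 38.6 and 24.1 with anti-PD-1 alone and 185, 226 and 200.3 with the combination (2.71 ± 0.22 (SE), limma adjusted p = 0.00253). Gbp5, a guanylate-binding protein, had 201, 339 and 159 with anti-PD-1 alone and 988, 967 and 942 with the combination (2.12 ± 0.28 (SE), limma adjusted p = 0.00926). Gbp2 and Irgm1 were called with differences of 0.68 and 1.10, and neither held at 2-fold against all 3 libraries. Cxcl9, another interferon gamma target, was below the filter, with 17, 2.03 and 1.15 against 5.73, 2.91 and 7.03.

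Among 25 pattern recognition receptor and adaptor genes, 5 were called higher and none lower, beside 5.96% and 4.21% of all genes. The 5 became 2, 10 and 5 without anti-PD-1 replicate 1, 2 or 3 in turn, and 2 without any 1 combination library. Apart from Clec4e, 2 lectin receptor genes of the same family, which can share reads, were in this group. Clec4d had 1891, 961 and 3196 with anti-PD-1 alone and 6712, 6462 and 7014 with the combination (1.90 ± 0.41 (SE), limma adjusted p = 0.0387), and Clec4n, the Dectin-2 gene, had 18403, 10984 and 23038 with anti-PD-1 alone and 53682, 51521 and 51975 with the combination (1.65 ± 0.29 (SE), limma adjusted p = 0.0196), both lowest in anti-PD-1 replicate 2. Tlr2, the receptor for bacterial lipoproteins, had 947, 955 and 982 with anti-PD-1 alone and 2789, 2695 and 2728 with the combination (1.51 ± 0.11 (SE), limma adjusted p = 0.00153), with the anti-PD-1 libraries almost level. Tlr4, the lipopolysaccharide receptor, had 3225, 4339 and 2572 with anti-PD-1 alone and 2065, 2032 and 1985 with the combination and was not called (-0.70 ± 0.20 (SE), limma adjusted p = 0.0846). Myd88 itself was lower in every combination library than in every anti-PD-1 library, without a call (-0.83 ± 0.27 (SE), limma adjusted p = 0.116).

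For costimulation and checkpoint genes, 7 of 15 were called higher and 1 lower. The 7 became 2, 9 and 8 without anti-PD-1 replicate 1, 2 or 3 in turn, and 2 without any 1 combination library, and the 1 lower lost its call without anti-PD-1 replicate 1 or any combination library. Cd40, the receptor for the T cell helper signal, had 187, 151 and 279 with anti-PD-1 alone and 771, 799.8 and 872 with the combination (2.02 ± 0.24 (SE), limma adjusted p = 0.00693). Tnfsf4, the OX40 ligand, had 129.8, 99.5 and 106 with anti-PD-1 alone and 373, 375 and 334 with the combination (1.69 ± 0.16 (SE), limma adjusted p = 0.00373), and Cd200, an inhibitory surface protein, had 338, 365 and 250.5 with anti-PD-1 alone and 1225, 1073 and 1089 with the combination (1.84 ± 0.18 (SE), limma adjusted p = 0.0039). These 3 held. Cd274, the PD-1 ligand gene, had 9471, 10948 and 6209.6 with anti-PD-1 alone and 18287, 18352 and 17381 with the combination (1.06 ± 0.23 (SE), limma adjusted p = 0.0381) and came within 2-fold of anti-PD-1 replicates 1 and 2. Cd80 had 283, 334 and 299.9 with anti-PD-1 alone and 459, 454 and 453 with the combination (0.58 ± 0.13 (SE), limma adjusted p = 0.0439), and Cd86 1059, 1016 and 946 with anti-PD-1 alone and 1331, 1193 and 1154 with the combination without a call (0.28 ± 0.12 (SE), limma adjusted p = 0.217). Both encode ligands of CD28.

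Genes of mature, migrating dendritic cells gave 10 of 19 called higher and 1 lower, and 5 held. The 10 became 2, 13 and 12 without anti-PD-1 replicate 1, 2 or 3 in turn, and 2 without any 1 combination library. Ccr7, the receptor that guides these cells within lymph nodes, had 2074, 1497 and 3111 with anti-PD-1 alone and 4140.0, 4143 and 4194 with the combination and missed the threshold (0.97 ± 0.26 (SE), limma adjusted p = 0.0727). Its distance from the mean of the combination was 1.00, 1.47 and 0.42, least against replicate 3. Fscn1, the actin bundler fascin, had 833, 741 and 1390.4 with anti-PD-1 alone and 2252, 2426 and 2565 with the combination (1.34 ± 0.25 (SE), limma adjusted p = 0.0243) and did not hold for the same library. Traf1, Cacnb3 and Marcksl1 held, with differences of 1.93, 1.21 and 1.36. Aldh1a2, the retinoic acid synthesising enzyme of gut dendritic cells, had 3574, 3537 and 2322 with anti-PD-1 alone and 5519, 5555 and 5411 with the combination (0.83 ± 0.19 (SE), limma adjusted p = 0.0461) and did not hold. Antigen presentation gave no call: 0 of 20 class I genes (median 0.14) and 0 of 12 class II genes (median 0.03) passed in limma. The class II median was -0.12, 0.42 and -0.46 against the 3 single libraries, so its sign depended on the library.

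Among oxidative stress and metal response genes 11 of 17 were called higher, none lower, 8 held, and the median was 1.36, the highest of the lists with at least 8 genes tested. The 11 became 7, 12 and 11 without anti-PD-1 replicate 1, 2 or 3 in turn, and 6 without any 1 combination library. Hmox1, heme oxygenase 1, had 9360.1, 7355 and 7563 with anti-PD-1 alone and 51988, 50172 and 51914 with the combination (2.67 ± 0.16 (SE), limma adjusted p = 0.000896). Slc7a11, the cystine transporter, had 1939.9, 2527 and 1832 with anti-PD-1 alone and 12614, 12322 and 12348 with the combination (2.58 ± 0.15 (SE), limma adjusted p = 0.000911). Srxn1, sulfiredoxin, had 3875, 3606 and 3928 with anti-PD-1 alone and 11034, 10844 and 10588 with the combination (1.51 ± 0.11 (SE), limma adjusted p = 0.00163), and Gclm, a subunit of the enzyme that makes the glutathione precursor, had 2221, 2092 and 1504 with anti-PD-1 alone and 7298, 7081 and 7120.5 with the combination (1.91 ± 0.17 (SE), limma adjusted p = 0.00319). These 4 and Gsta2 were called in all 6 fits without 1 library.

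Cell cycle genes fell. Of 27 tested, 24 were called lower, none higher, 12 held, and the median was -1.21, with -1.21, -1.16 and -0.96 against the single libraries. The 24 became 9, 26 and 25 without anti-PD-1 replicate 1, 2 or 3 in turn, and 8 without any 1 combination library. Ccnb2, cyclin B2, had 1959, 1629.9 and 1750.0 with anti-PD-1 alone and 551, 492 and 501 with the combination (-1.79 ± 0.13 (SE), limma adjusted p = 0.00163). Cdc20, an activator of the anaphase-promoting complex, had 1918, 1774 and 1690.3 with anti-PD-1 alone and 496, 532 and 582 with the combination (-1.74 ± 0.13 (SE), limma adjusted p = 0.00163). Ccna2, cyclin A2, had 1865, 2065 and 2344 with anti-PD-1 alone and 724, 718 and 658 with the combination (-1.57 ± 0.14 (SE), limma adjusted p = 0.0027), and Rrm2, the ribonucleotide reductase subunit, had 3835, 3379 and 3659.8 with anti-PD-1 alone and 1635, 1576 and 1551 with the combination (-1.19 ± 0.11 (SE), limma adjusted p = 0.00351). All 4 were called in each fit without 1 library.

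Macrophage markers were called in both directions, while chemokine receptor and myeloid chemokine genes gave 3 of 17 lower and none higher. The 3 became 1, 7 and 3 without anti-PD-1 replicate 1, 2 or 3 in turn, and 0 without any 1 combination library. Of 17 macrophage and monocyte markers, 4 were called lower and 2 higher (median -0.24), beside 4.21% and 5.96% of all genes. The 4 lower became 2, 7 and 5 without anti-PD-1 replicate 1, 2 or 3 in turn, and 1 without any 1 combination library. Ccr2, the monocyte chemokine receptor, had 6139, 7546 and 7092 with anti-PD-1 alone and 3543, 3541 and 3672 with the combination (-0.94 ± 0.13 (SE), limma adjusted p = 0.00893) and missed 2-fold against 2 libraries. F13a1, coagulation factor XIII, rose and held (1.40 ± 0.28 (SE), limma adjusted p = 0.0287). Lectin and alternative activation genes gave 4 of 16 lower and none higher, and the 4 became 0, 8 and 6 without anti-PD-1 replicate 1, 2 or 3 in turn, and 0 without any 1 combination library. Arg1, arginase 1, had 127273, 112111 and 65843 with anti-PD-1 alone and 39426, 37759 and 37998 with the combination (-1.35 ± 0.28 (SE), limma adjusted p = 0.0326), and Mrc1, the mannose receptor, had 9012, 14844 and 8356 with anti-PD-1 alone and 4589, 4509 and 4466 with the combination (-1.20 ± 0.23 (SE), limma adjusted p = 0.0276). Neither held, since the mean of the combination lay within 2-fold of anti-PD-1 replicate 3 for both genes, and for Mrc1 also just within 2-fold of replicate 1. Clec10a, another lectin, had 3327, 1918 and 4736 with anti-PD-1 alone and 939, 847 and 887 with the combination and held (-1.81 ± 0.32 (SE), limma adjusted p = 0.0211). The chemokine gene Ccl7 also fell and held, with 17525, 9197 and 20991 with anti-PD-1 alone and 4156, 3929.9 and 4248 with the combination (-1.87 ± 0.31 (SE), limma adjusted p = 0.0172). Of the complement genes 3 of 14 were lower and 1 higher, and the 3 became 1, 8 and 4 without anti-PD-1 replicate 1, 2 or 3 in turn, and 0 without any 1 combination library. C5ar1, the receptor for the fragment C5a, held with 1267, 1014 and 850.3 with anti-PD-1 alone and 375, 386 and 323 with the combination (-1.51 ± 0.18 (SE), limma adjusted p = 0.00755).

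Respiratory chain genes gave 0 of 19 calls in limma, and their median of -0.53 split into -0.56, 0.21 and -1.10 against the 3 anti-PD-1 libraries, with the sign turned for replicate 2. Uqcrc1, a complex III subunit, shows the pattern, with 10294, 6782 and 15123 with anti-PD-1 alone and 6738, 7142 and 7308 with the combination. Glycolysis had 1 of 17 called higher, near the 5.96% of all genes, the glucose transporter gene Slc2a1 (0.69 ± 0.11 (SE), limma adjusted p = 0.016), and 0 held. Its median was 0.38, with 0.41, 0.45 and 0.37 against the 3 anti-PD-1 libraries. In 12 of the 17 every combination library lay above every anti-PD-1 library, beside 19.6% of all genes, and in 0 below, beside 16.7%. Hypoxia genes had 3 of 12 called higher, among them Egln3, an oxygen-sensing prolyl hydroxylase (1.81 ± 0.21 (SE), limma adjusted p = 0.00639), and Bnip3, a mitophagy receptor (1.35 ± 0.20 (SE), limma adjusted p = 0.0128), which both held. The 3 became 2, 9 and 5 without anti-PD-1 replicate 1, 2 or 3 in turn, and 0 without any 1 combination library. Cholesterol synthesis had 0 of 19 calls.

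**Figure D2:**
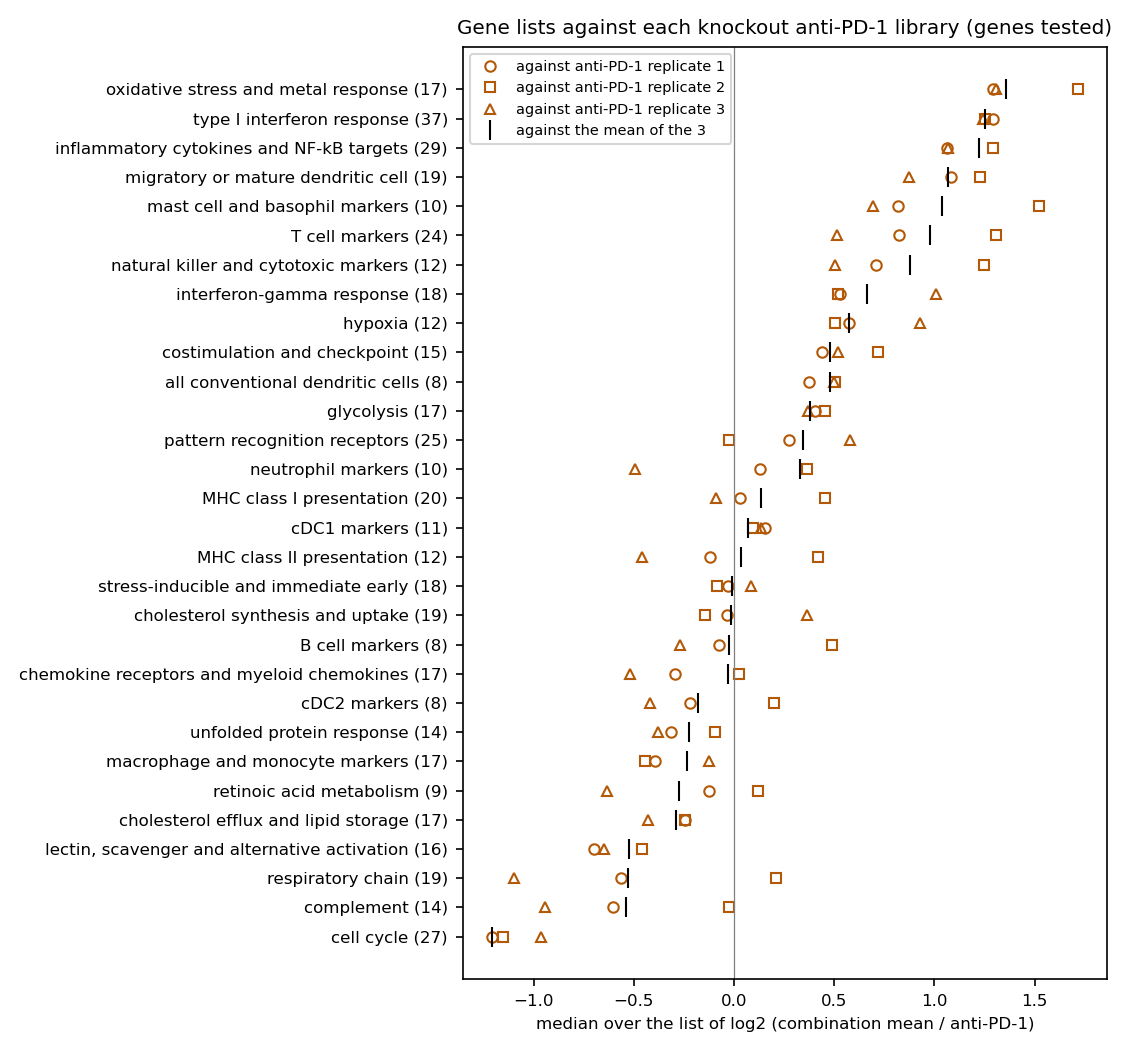
Median log2 difference of each gene list with at least 8 genes tested, between the mean of the combination libraries and each single knockout anti-PD-1 library (open symbols) or the mean of the 3 (black ticks). The oxidative stress, type I interferon, inflammatory and cell cycle lists keep their sign against all 3 libraries, while the respiratory chain list lies at 0.21 against replicate 2 and at -1.10 against replicate 3.

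Transcripts of some other cell types were also higher with the combination. Of 24 T cell markers tested 7 were called higher and none lower (median 0.98), and their summed level was 7657 to 8097 with anti-PD-1 alone and 17839 to 18158 with the combination, of which Il7r, also expressed by other cells, made up the largest share at 4246, 5344 and 2945 and 11302, 11066 and 10976. The 7 became 1, 12 and 13 without anti-PD-1 replicate 1, 2 or 3 in turn, and 0 without any 1 combination library. Cd3e, a T cell receptor subunit, had 114, 59.9 and 119.5 with anti-PD-1 alone and 196, 169 and 198 with the combination and was not called (0.99 ± 0.29 (SE), limma adjusted p = 0.0912). Natural killer and cytotoxic markers gave 5 of 12 higher, with a sum of 4465 to 9162 with anti-PD-1 alone and 11937 to 12598 with the combination, and Gzmb, granzyme B, had 927, 801 and 694 with anti-PD-1 alone and 2355, 2296 and 2321 with the combination (1.53 ± 0.14 (SE), limma adjusted p = 0.00322). The 5 became 1, 5 and 6 without anti-PD-1 replicate 1, 2 or 3 in turn, and 1 without any 1 combination library. For mast cell and basophil markers 3 of 10 were higher, with a sum of 892 to 1220.3 with anti-PD-1 alone and 2186 to 2370.4 with the combination, led by Gata2 (1.5 ± 0.13 (SE), limma adjusted p = 0.0027), and the 3 became 1, 6 and 5 without anti-PD-1 replicate 1, 2 or 3 in turn, and 1 without any 1 combination library. B cell markers gave 0 of 8 calls, with a sum of 778 to 1269 with anti-PD-1 alone and 1072 to 1118 with the combination. Neutrophil markers gave 1 higher and 2 lower of 10, beside 5.96% and 4.21% of all genes. Their sum was 5366 to 6161 with anti-PD-1 alone and 9526 to 10068 with the combination. The rise was Mmp8 (1.03 ± 0.11 (SE), limma adjusted p = 0.00474), which made up most of both sums, with means of 4151 and 8476. The 2 lower were S100a9, with means of 90.0 and 9.34, and Lcn2, with 650 and 221, so the higher sum was not shared by these markers. The macrophage sum was 304966 to 474075 with anti-PD-1 alone and 311895 to 323463 with the combination, so the ranges overlapped. No listed marker of these cell types was at 0 in any of the 6 libraries. The lowest mean of any listed gene over the 24 libraries was 9.57, and 11 of 15 B cell markers were listed. Markers with few reads are thus missing from this count, which does not show how much RNA came from these cells. Whether RNA from other cells has a part in the changes above was not tested.

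Most conventional dendritic cell markers were not called, and the calls went in both directions. Over all genes tested, 5.96% were called higher and 4.21% lower. Zbtb46 had 192, 210.1 and 224 with anti-PD-1 alone and 363, 369 and 383 with the combination (0.83 ± 0.14 (SE), limma adjusted p = 0.0162) and was the 1 of 8 genes shared by all conventional dendritic cells that was called. Flt3 did not pass (1.09 ± 0.35 (SE), limma adjusted p = 0.109), nor did Itgax, at 33061, 37827 and 34215 with anti-PD-1 alone and 53698, 51733 and 51199.7 with the combination (0.58 ± 0.15 (SE), limma adjusted p = 0.0653). For the type 1 subset 2 of 11 markers were higher, Clec9a, a receptor for dead cells (1.07 ± 0.14 (SE), limma adjusted p = 0.00865), and Cd8a, which is also a T cell marker (1.05 ± 0.14 (SE), limma adjusted p = 0.00863), and Naaa was lower (-0.73 ± 0.12 (SE), limma adjusted p = 0.0158). For the type 2 subset 1 of 8 markers was higher, Irf4 (0.80, limma adjusted p = 0.0117), and 1 lower, Clec10a, which held as given above. The median of that list was -0.18, with -0.22, 0.20 and -0.42 against the 3 anti-PD-1 libraries.

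Some of the largest differences between the group means did not hold. Chpf2, an enzyme of chondroitin synthesis, had 429, 1258 and 75.8 with anti-PD-1 alone and 2196, 2272 and 1968 with the combination, and its distance from the mean of the combination was 2.32, 0.77 and 4.8 in replicate order. Tm4sf19, a tetraspan membrane protein, had 81.9, 506 and 8.04 with anti-PD-1 alone and 437, 418 and 384 with the combination, so that replicate 2 lay above all 3 combination libraries. Rnf149, a ubiquitin ligase, had 1563, 3441 and 199.9 with anti-PD-1 alone and 5652, 5575 and 5239.7 with the combination, and Capn15, a calpain protease, 135, 639 and 27.6 with anti-PD-1 alone and 610.1, 656 and 608 with the combination. For Trat1, a T cell receptor adaptor, the values were 29.8, 121 and 11.5 with anti-PD-1 alone and 202, 208 and 253 with the combination. Fndc9, Trim34a and Rab2b completed the 8 genes of this kind. All 8 were lowest in anti-PD-1 replicate 3 and highest in replicate 2, and none was called (limma adjusted p from 0.0927 to 0.295). Among the genes named here, Mmp8 lay just inside the 2-fold limit, with distances of 1.00, 1.02 and 1.07, and Birc3, an inhibitor of apoptosis, just outside it, with 1.5, 0.99 and 1.80.

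**Figure D3:**
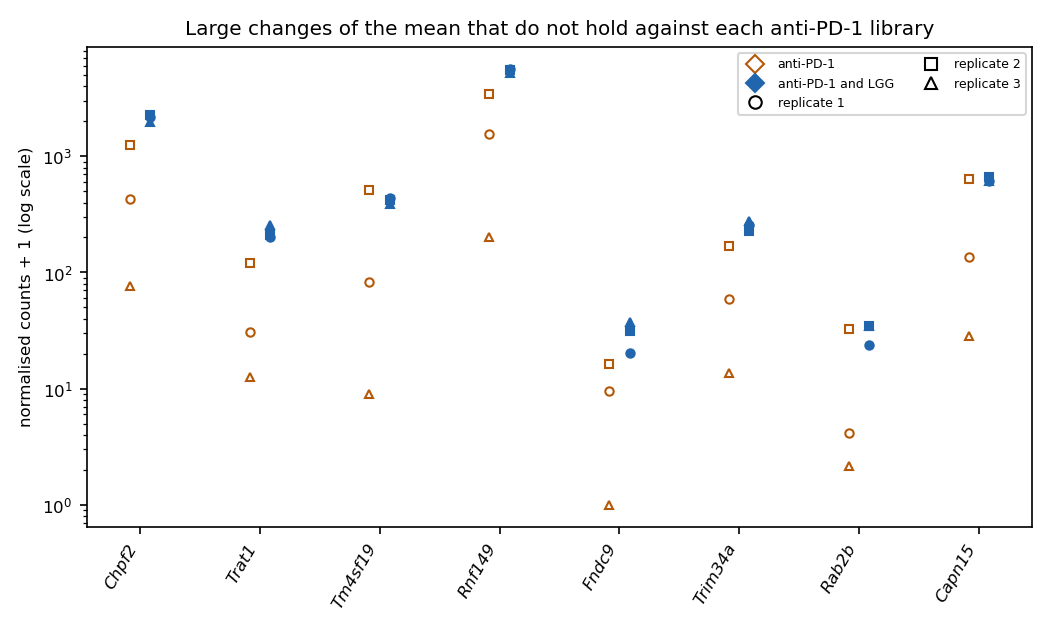
Normalised counts plus 1 on a log axis for the 8 largest differences between group means that did not hold; open symbols are the 3 anti-PD-1 libraries, filled symbols the 3 combination libraries. In each gene anti-PD-1 replicate 3 (triangle) is lowest and replicate 2 (square) highest, while the combination libraries lie close together.

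The same addition of LGG to anti-PD-1 in wild-type mice shares no library with the knockout comparison. Of the 361 genes that held higher in the knockout, 264 were 2-fold or more higher in wild type too, beside 12.7% of all genes, and of the 143 that held lower, 116 were 2-fold lower, beside 12.4%. Across 12245 genes the effects in the 2 genotypes had r = 0.53, a description over genes that are not independent. A test of the difference of the effects over 12 libraries (limma interaction) called 3785 of 12719 genes, or 29.8%, of which 2103 (16.5%) had the more positive effect in the knockout and 1682 (13.2%) the more negative. Among the genes that held higher, the effect was smaller in the knockout for 131 and larger for 86, and among those that held lower it was smaller for 49 and larger for 15. These genes were picked for a large effect in the knockout, and the same 6 libraries enter the test. That favours a larger effect in the knockout, so the split is a description only. The genotypes also differ in the Y-linked transcripts given above, so genotype and what those transcripts mark cannot be told apart in these differences.

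Il6 went in opposite directions. In wild type it had 808, 782 and 799 with anti-PD-1 and 14588, 14193 and 14849 with the combination, a rise of 4.19 against the fall of 1.60 in the knockout (difference -5.79 ± 0.13 (SE), limma adjusted p = 2.73e-09). Il1b rose from 532, 554 and 454 to 75237, 73029.7 and 74151 in wild type, and the difference of the effects was -5.94 ± 0.18 (SE), limma adjusted p = 1.73e-08. Tnf rose by 6.23 in wild type against 2.50 in the knockout (difference -3.73 ± 0.23 (SE), limma adjusted p = 1.29e-06). Nos2 rose by 7.87 against 4.53 (difference -3.34 ± 0.12 (SE), limma adjusted p = 3.49e-08), and Il12b by 7.04 against 2.31 (difference -4.72 ± 0.55 (SE), limma adjusted p = 0.000105). For the interferon genes Rsad2 and Isg15 the differences were -1.06 ± 0.15 (SE), limma adjusted p = 0.000393, and -2.74 ± 0.26 (SE), limma adjusted p = 2.49e-05. Apart from Il6, these genes rose in both genotypes and by less in the knockout.

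For other genes the difference did not pass, or the rise was larger in the knockout. Mmp8 and Clec9a rose in the knockout and fell in wild type, and Fam20a and Ffar2 fell in the knockout but not in wild type. The difference was 0.02 ± 0.23 (SE), limma adjusted p = 0.957 for Il1f9, 0.44 ± 0.27 (SE), limma adjusted p = 0.242 for Cyp26b1, and -0.08 ± 0.34 (SE), limma adjusted p = 0.886 for Rtn4rl2. These miss the threshold, which does not show that the effects are equal. Gclm rose by 1.91 in the knockout and 0.31 in wild type (difference 1.60 ± 0.18 (SE), limma adjusted p = 8.14e-05), and Clec4n by 1.65 and 0.43 (difference 1.22 ± 0.30 (SE), limma adjusted p = 0.0101). Mmp8, a neutrophil collagenase, rose in the knockout and fell by 1.66 in wild type, with 3659, 3666 and 3946 against 1088, 1157 and 1333 (difference 2.69 ± 0.12 (SE), limma adjusted p = 1.45e-07). Clec9a did likewise, with a fall of 2.83 in wild type (difference 3.90 ± 0.21 (SE), limma adjusted p = 3.75e-07). Fam20a had 20.6, 22.5 and 11.5 and 27.3, 10.1 and 20.8 in wild type (difference -3.57 ± 0.52 (SE), limma adjusted p = 0.000462), and Ffar2 rose by 0.41 in wild type (difference -2.68 ± 0.30 (SE), limma adjusted p = 7.37e-05).

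**Figure D4:**
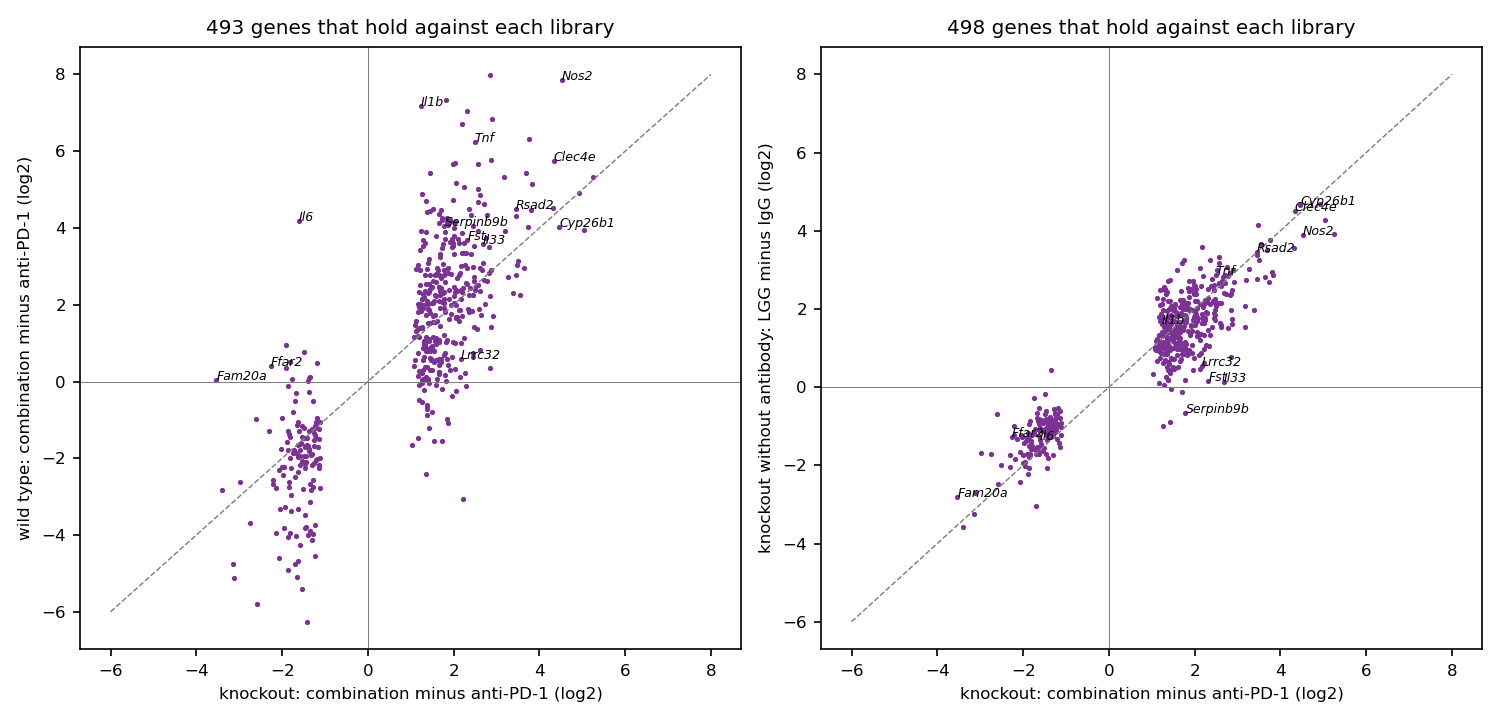
Log2 effect of LGG added to anti-PD-1 in the knockout (horizontal) for genes that held, against the same effect in wild type (left, 493 genes tested in both) and against LGG compared with IgG in the knockout without anti-PD-1 (right, 498 genes); the dashed line marks equal effects. Il6 lies at -1.60 in the knockout and 4.19 in wild type, and Il33, Fst and Serpinb9b lie near or below 0 on the right.

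LGG was also given to knockout mice without anti-PD-1, and that effect, LGG against IgG control, shares no library with the comparison either. The labels name no antibody for the LGG group, so that contrast differs in the antibody as well. Of the 361 genes that held higher, 287 were 2-fold higher there too, beside 7.65% of all genes, and of the 143 that held lower, 93 were 2-fold lower, beside 1.90%. The 2 effects had r = 0.75 across 12257 genes. Clec4e changed by 4.51 without and 4.34 with the antibody, Rsad2 by 3.46 and 3.45, Hmox1 by 2.42 and 2.67, and Il6 by -1.35 and -1.60. A test of the difference of these effects over 12 libraries called 11 of 12346 genes, or 0.0891%, 9 (0.0729%) with the more positive effect beside anti-PD-1 and 2 (0.0162%) with the more negative. At an unadjusted p below 0.05 there were 764, edgeR called 10 and DESeq2 129. The test called 4, 38 and 12 genes without anti-PD-1 replicate 1, 2 or 3 in turn. The LGG libraries also spread, with a biological coefficient of variation of 0.249.

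Il33, an alarmin of the interleukin-1 family, had 21.3, 23.3 and 31.0 with anti-PD-1 alone and 172, 168 and 158 with the combination, and 82.8, 91.2 and 85.7 with IgG and 109.7, 77.3 and 102 with LGG (difference of the effects 2.55 ± 0.25 (SE), limma adjusted p = 0.00417). Fst, follistatin, which binds activin, had 46.8, 35.5 and 39.1 with anti-PD-1 alone and 193, 215 and 207 with the combination, and 125, 122 and 103 with IgG and 142, 125 and 124 with LGG (difference 2.16 ± 0.20 (SE), limma adjusted p = 0.00417). Serpinb9b, a serpin with close paralogs, had 111, 83.2 and 65.5 with anti-PD-1 alone and 335, 266 and 285 with the combination, and 431, 415 and 461 with IgG and 299, 252 and 271 with LGG (difference 2.46 ± 0.25 (SE), limma adjusted p = 0.0047). Lrrc32, which encodes the TGF-beta carrier GARP, had 531, 689 and 599.8 with anti-PD-1 alone and 2765, 2724 and 2615 with the combination, and 1347, 1349 and 1364 with IgG and 2109.9, 1760.1 and 2056 with LGG (difference 1.62 ± 0.16 (SE), limma adjusted p = 0.00417). In these 4 genes the anti-PD-1 libraries were lower than all IgG libraries, and they were the 4 called in each of the 12 fits without 1 library. For Syt7, a synaptotagmin, the difference was 1.26 ± 0.17 (SE), limma adjusted p = 0.0349, and for Gpr15, a homing receptor, 1.28 ± 0.16 (SE), limma adjusted p = 0.0219. Pdpn, the mucin-like protein podoplanin, differed by 1.00, and Cav1, caveolin 1, and Mettl7a1, which were named after their values were seen, by 0.93 and 0.96. Camk4, a calcium-dependent kinase of T cells and other cells, had 34.0, 32.5 and 32.2 with anti-PD-1 alone and 47.7, 50.5 and 42.2 with the combination, and 21.5, 17.5 and 15.8 with IgG and 77.3, 79.8 and 96.5 with LGG (difference -1.66 ± 0.24 (SE), limma adjusted p = 0.0446). The last of the 11, Serpina3f, a serpin with close paralogs, differed by -1.12 ± 0.14 (SE), limma adjusted p = 0.0185.

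**Figure D5:**
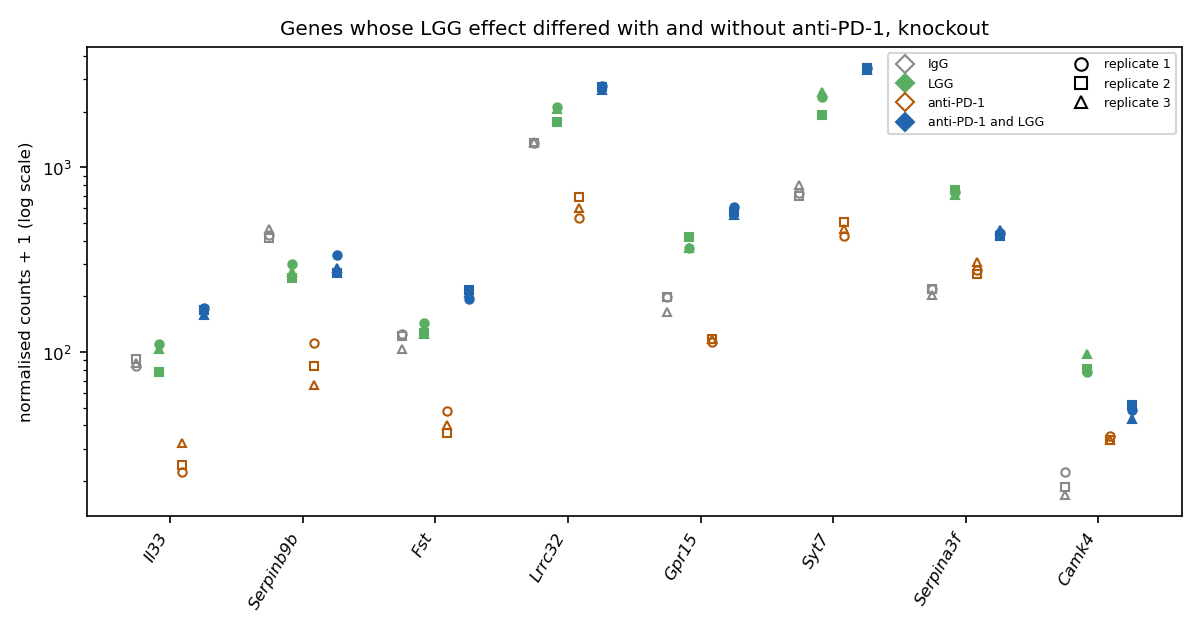
Normalised counts plus 1 on a log axis in the 12 knockout libraries for 8 genes whose LGG effect differed with and without anti-PD-1; for each gene the groups from left to right are IgG, LGG, anti-PD-1 and the combination, and the symbol shape gives the replicate. Il33, Serpinb9b, Fst and Lrrc32 are lower in the 3 anti-PD-1 libraries than in the 3 IgG libraries, and Camk4 is highest with LGG alone.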

How the data were processed

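RNA from CD11c+ cells was sequenced in bulk, and the comparison uses 6 of the 24 libraries. Per the submitters' processing notes, which name tools without their order, STAR 2.4.0, HTSeq 0.6.1, DESeq2 (version not stated) and build mm10 were used. The authors deposited 1 table of normalised signal for 12767 genes, scaled by 1 size factor per library. Undoing the scaling gave whole numbers for 100% of entries (tolerance 0.001), which were the reads used in edgeR and DESeq2. In the 6 libraries 28179103 to 36421522 reads fell on listed genes, so low genes are the least precise.

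From the deposited signal, log2(value + 1) was tested with limma 3.58.1 in R 4.3.3 (empirical Bayes with trend and robust variances, two-sided p adjusted by Benjamini and Hochberg below 0.05) on the 12363 genes whose mean over the 6 libraries reached 10. A fold change is on that scale, and an error after it is a standard error. The fit holds these 6 libraries alone, because the anti-PD-1 libraries spread more than other groups and an estimate pooled over 8 groups would understate their error. A difference of effects is an interaction over 12 libraries. The model was tested on simulated data, with genes drawn independently and a spread set per group. A shift shared by many genes of a library, such as the trend with transcript length, was not simulated. Members and lists were chosen with earlier results of these data known.

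Named genes are the 12 largest rises and 12 largest falls that were called, held and had a mean of at least 20 in the higher group, the 8 largest differences that did not hold, up to 4 members with the smallest p of each list described, up to 6 genes in each direction per interaction, and a fixed set of 30 genes of Myd88, cytokine, interferon and costimulation biology. Predicted genes and receptor segments were passed over, and some genes that the rule names are not reported here. Promoters come from RefSeq and positions from GENCODE M21 on the same build, matched by identifier for 12759 genes. Alternatives were a pseudocount of 8, no filter, TMM scaling, array weights, all 24 libraries, a replicate block, edgeR 4.0.16, DESeq2 1.42.0, other fold limits, each library left out, and, chosen after seeing the data, removal of length and GC trends.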

Additional observations from a re-analysis of the deposited data

Results flagged for a closer look

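The effect of LGG added to anti-PD-1 differed between knockout and wild type in 3785 genes by the limma interaction test. Named genes with the more positive effect in the knockout were Slc36a2, by 8.72 on the log2 scale, Tlr8 by 7.01, Mrc1 by 6.44, Clec4b1 by 5.49 and Dlk2 by 5.29. Tlr8 rests on knockout anti-PD-1 libraries at 202, 1409.7 and 13.8. Those with the more negative effect were Csf3 at -11.68, Hamp at -8.29, Barx1 at -8.07, Plat at -7.70, Apol9a at -6.88 and Il10 at -6.36. Csf3 had no read in the 3 wild-type anti-PD-1 libraries and 7622 to 8744 in the wild-type combination, so its value depends on the pseudocount and is no bound. The same goes for Barx1, at 0.90, 0 and 0 with wild-type anti-PD-1, Apol9a, at 0, 0.80 and 0.89, and Plat, at 4.49, 0 and 0. Slc36a2 was at 0, 1.12 and 2.19 in the wild-type combination.

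In the knockout, the LGG effect differed with and without anti-PD-1 in 11 genes by the same kind of test. The differences were 2.55 for Il33, 2.46 for Serpinb9b, 2.16 for Fst, 1.62 for Lrrc32, 1.28 for Gpr15 and 1.26 for Syt7, and -1.66 for Camk4 and -1.12 for Serpina3f.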

How the results depend on the processing

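The 1258 calls became 1284 with a pseudocount of 8, 1245 without a filter, 1244 with TMM scaling and 1208 with edgeR, which shared 1179 genes. Array weights called 7927, all 24 libraries in the fit 4673, DESeq2 2363 and removal of length and GC trends 2295. The replicate block called 427, of which 426 were shared, but replicate numbers do not pair these samples: same-numbered libraries correlated at 0.044, 0.080 and 0.15 in their deviations. Leaving out 1 library gave 146 to 5855 calls. The 504 genes that held became 1239 at a 1.5-fold limit and 62 at a 4-fold limit, and 494 to 1294 without 1 library. The difference between genotypes, 3785 genes, became 8527 with array weights, 3600 with the replicate block and 2994 to 7599 without 1 library. The difference with and without anti-PD-1, 11 genes, became 1227 with array weights, 242 with all 24 libraries, 129 with DESeq2, 4 with the replicate block and 4 to 38 without 1 library. Leaving out a library puts fewer libraries in the fit, and the fit of all 24 pools the spread over more groups. For the other settings the cause was not tested. Of 109 named genes called, 5 lost the call with edgeR, 33 with the replicate block, 2 with length and GC trends removed and up to 66 without 1 library. None of these 109 changed sign under the 15 settings, whereas 5 named genes without a call did in at least 1: Tlr8, Ddx3y, Uty, Eif2s3y and Hba-a1. Depth limits genes close to the minimum mean of 10.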
